A study of Sus scrofa with 22 samples.

Results

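Imprinted growth genes were followed across 22 pig RNA sequencing libraries, 14 of fetal body tissue and 8 of embryos. The set was chosen by name and lists 10 genes, 7 of them expressed from the paternal allele (DLK1, IGF2, MEST, PEG3, PEG10, NNAT and PLAGL1) and 3 maternally expressed or of mixed imprinting (IGF2R, TFPI2 and GNAS). It was proposed with earlier results of these data known, in which paternally expressed genes, DLK1 among them, were lower in abnormal than in normal cloned fetuses at day 35. Values that involve the day 35 abnormal libraries are therefore given as a description, without a p-value. Of the 10 genes, 9 had a matched transcript record, among 14389 genes in all, and PEG3 is not analysed here.

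Cloned fetuses of day 30 and of day 35 were labelled abnormal (2 libraries per day) or normal (3 per day), and naturally fertilized (NF) fetuses gave 2 libraries per day. Embryos grown in vitro to day 6 gave 4 groups of 2 libraries. These were clones without the XIST gene (XIST-KO), clones given Kdm4A, a demethylase of histone H3 lysine 9 (WT+Kdm4A), clones with neither (WT) and in vitro fertilized embryos of pooled sex (IVF). Every clone is labelled male, as are 3 of the 4 NF fetuses, while day 30 NF replicate 2 is labelled female. The donor cells and the way Kdm4A was given are not stated in the sources used here, and the labels do not tie replicates to separate animals or cultures, so a p-value here reflects variation among libraries, which may be technical.

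Imprinted genes are transcribed from the copy of one parent, under methylation marks set in the egg or sperm and kept through early development. Many of them set the growth of fetus and placenta, with paternally expressed genes such as IGF2 promoting growth and maternally expressed genes such as IGF2R limiting it. In cloning by nuclear transfer the marks come from a somatic nucleus, and their upkeep has been a long-standing question in cloned livestock.

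Both day 35 abnormal libraries stood apart from the rest. Total expected counts ran from 588882 to 11535824 in fetus libraries, and day 35 abnormal replicate 2 was the shallowest, with the next at 3463757. Its Spearman correlation over 9911 genes was 0.789 with its replicate, where other fetal replicate pairs gave 0.96 to 0.989, and it reached 0.908 with day 30 NF replicate 1. EIF1AY, a Y-linked translation factor gene, was at 0 in both day 35 abnormal libraries and in day 30 NF replicate 1, all labelled male. It lay between 20.5 and 52.9 CPM (counts scaled to the size of the library) in the other fetus libraries, including the one labelled female. For the set and for the pathway genes named, levels in the 2 day 35 abnormal libraries are therefore given apart.

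Marker genes of other cell types differed between the same groups. Summed levels of 9 neural genes were 710 to 882 CPM in abnormal, 2340 to 2970 CPM in normal and 550 to 906 CPM in NF fetuses at day 30. At day 35 they were 356 to 407 CPM in abnormal, 3240 to 5270 CPM in normal and 489 to 513 CPM in NF fetuses. The neural list was thus highest in normal clones on both days. Sums of 9 genes typical of cultured fibroblasts were 14900 to 26400 CPM in the 4 NF libraries. They were 1560 to 2880 CPM in clones other than day 35 abnormal replicate 2, which held 34100 CPM. Placenta and trophoblast markers (11 genes) summed to 2040 to 2630 CPM in abnormal, 195 to 259 CPM in normal and 84.3 to 85.3 CPM in NF fetuses at day 30. Skeletal muscle markers (12 genes) summed to 202 and 416 CPM in abnormal and 532 to 804 CPM in normal clones at day 30. At day 35 they summed to 66 and 669 CPM in abnormal, 1360 to 2530 CPM in normal and 679 to 682 CPM in NF fetuses. Hypoxia genes (9 genes) summed to 6020 and 6950 CPM in abnormal and 786 to 849 CPM in normal clones at day 30. Their day 35 sums were 13000 and 952 CPM in abnormal and 650 to 848 CPM in normal clones. In bulk tissue, fewer cells of a type and less RNA per cell cannot be told apart, and the part of such differences in the results below was not tested.

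**Figure D1:**
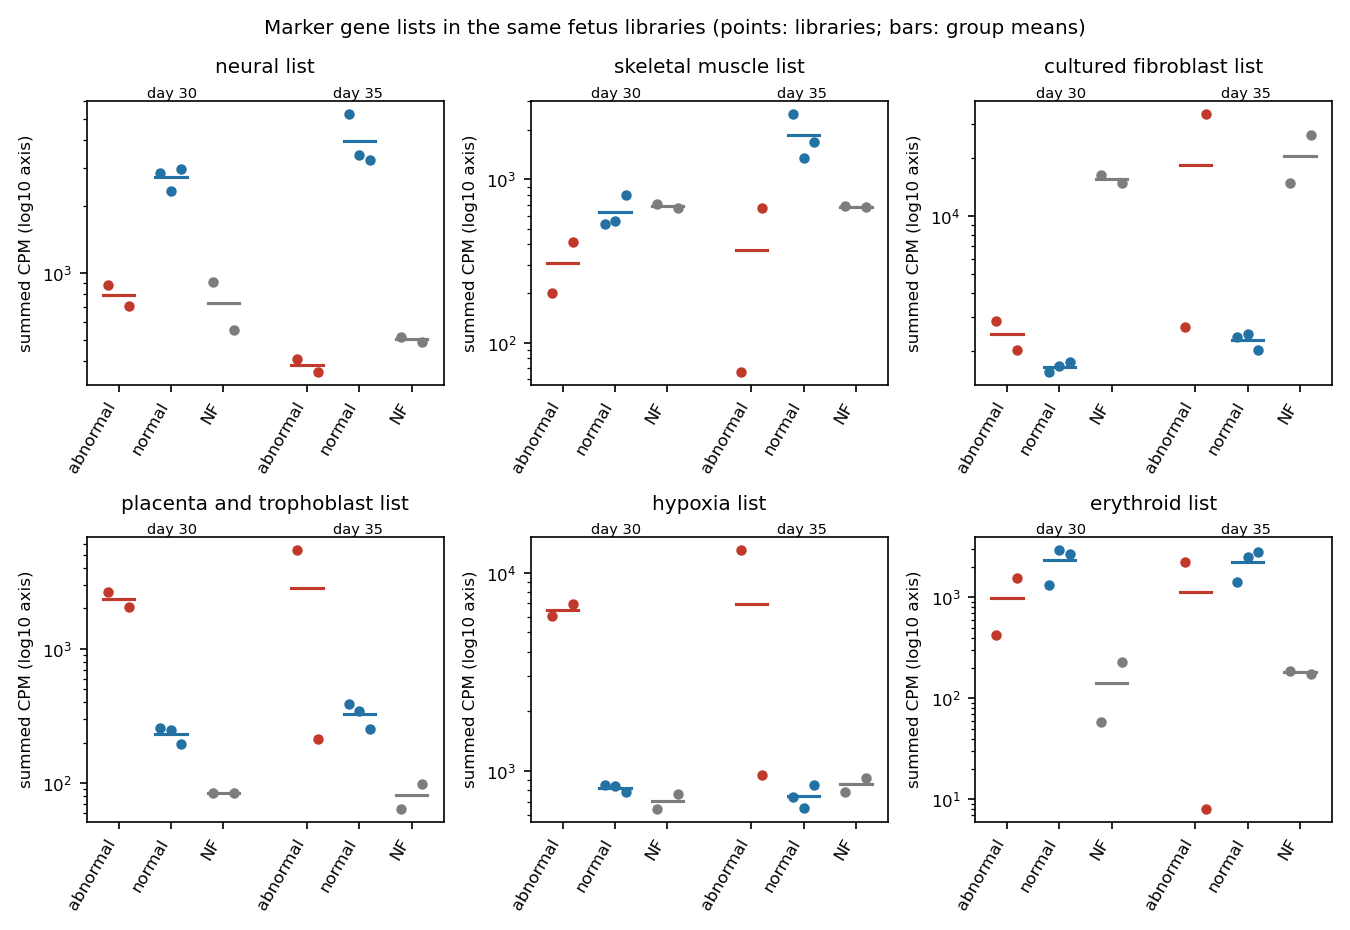
Summed CPM (log10 axis) of 6 marker lists in each fetus library, by group and day, with points for libraries and bars for group means. Neural genes were highest in normal clones, fibroblast culture genes in NF fetuses and day 35 abnormal replicate 2, and hypoxia genes in 3 of the 4 abnormal libraries.

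The genes lie in known imprinted regions of the pig genome (Sscrofa11.1). DLK1 spans chromosome 7, 121565844 to 121577493, IGF2 chromosome 2, 1469183 to 1496417, and MEST chromosome 18, 18319126 to 18358655. On chromosome 9, PEG10 (74474121 to 74486983) and TFPI2 (73684236 to 73694663) are near neighbours. NNAT (40625990 to 40629523) and GNAS (58985580 to 59053022) lie on chromosome 17, and PLAGL1 (21299830 to 21371070) and IGF2R (7369485 to 7472480) on chromosome 1. The files hold transcript records, which were summed per gene. For IGF2, IGF2R and TFPI2 1 record was matched, 2 for DLK1 and NNAT, 4 for PEG10, 5 for MEST, 7 for PLAGL1 and 8 for GNAS. RefSeq lists 17 transcripts for IGF2, 5 for DLK1, 3 for NNAT, 8 for MEST, 29 for PLAGL1 and 24 for GNAS. Not every annotated transcript of these genes is thus in the totals, while those of PEG10, IGF2R and TFPI2 all are. Per length, in TPM (transcript abundance scaled for length and depth), GNAS was the highest member in every fetal group, with 2230 ± 28.4 TPM in day 30 normal fetuses (SD, n = 3). NNAT followed there with 1030 ± 79.7 TPM and IGF2 with 405 ± 7.06 TPM, and TFPI2 was lowest with 5.37 ± 0.849 TPM.

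Counts were tested in 1 model per stage with edgeR, with p-values adjusted over all genes and a threshold of 0.05. At day 30, 1 of the 9 genes passed in abnormal against normal fetuses, where 15.4% of all 9911 tested genes passed. That gene was TFPI2, which was higher, and the 9 log2 fold changes had a median of -0.21, beside -0.02 over all genes. A fit without both day 35 abnormal libraries, added after the data were seen, called 5 of the 9, with a background of 32.1%. Lower in abnormal fetuses in that fit were DLK1 (log2 fold change -1.65), MEST (-1.61) and PEG10 (-1.09), and higher were PLAGL1 (0.97) and TFPI2 (3.17).

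At day 35 the model called 4 of 9 genes in abnormal against normal fetuses, with a background of 23.2%. These were DLK1, IGF2 and NNAT, lower, and IGF2R, higher, and the median log2 fold change was -2.21 over the 6 paternally expressed genes and 0.92 over the other 3, beside 0.00 over all genes. Nothing is read from this count, since the set was chosen with that contrast in view. It was 5 without abnormal replicate 1 and 8 without abnormal replicate 2. For the difference between the day 35 and day 30 effects, the model called 2 genes (DLK1 and TFPI2) beside a background of 4.05%. That difference contains the day 35 contrast, so nothing is read from its count either.

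Normal clones differed from NF fetuses in 4 of 9 genes at day 30 (background 29.3%) and in 7 of 9 at day 35 (background 42.3%). DLK1, IGF2, IGF2R and TFPI2 were lower in normal clones on both days (at day 30 whichever 1 of the 14 libraries was left out), and at day 35 PLAGL1 was lower and NNAT and GNAS were higher. The median of the 9 log2 fold changes was -1.13 at day 30 and -0.88 at day 35, beside 0.00 and 0.06 over all genes. Without the day 35 abnormal libraries the day 30 count was 7 of 9, with a background of 45.3%. Abnormal clones at day 30 were lower than NF fetuses in 3 of 9 (DLK1, IGF2 and IGF2R) with a background of 30%, and in 6 of 9 genes with 1 of them higher in the fit without the day 35 abnormal libraries, with a background of 46.4%. At day 35 the model called 6 of 9 lower in abnormal than in NF fetuses, with a background of 23.2%. With only the compared groups in the fit, 0 of all genes were called. Nothing is read from this comparison, since the set was chosen with low values in these abnormal libraries known. There MEST was called in 6 of 14 fits with 1 library left out (lost without any day 30 normal library, day 35 normal replicate 1 or 3, day 35 abnormal replicate 1 or either day 35 NF library), and PLAGL1 and TFPI2 were not called without day 35 abnormal replicate 1 or day 35 NF replicate 2. Comparisons of abnormal with normal and of normal with NF fetuses share the normal libraries.

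Between days, normal clones at day 35 differed from those at day 30 in 2 of 9 genes (IGF2 and TFPI2, both higher) with a background of 9.19%. NF fetuses at day 35 differed from those at day 30 in 0 of 9 genes, and edgeR called 0% of all genes there, with 351 genes at an unadjusted p under 0.05 and 11 called by DESeq2, none of them a member.

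**Figure D2:**
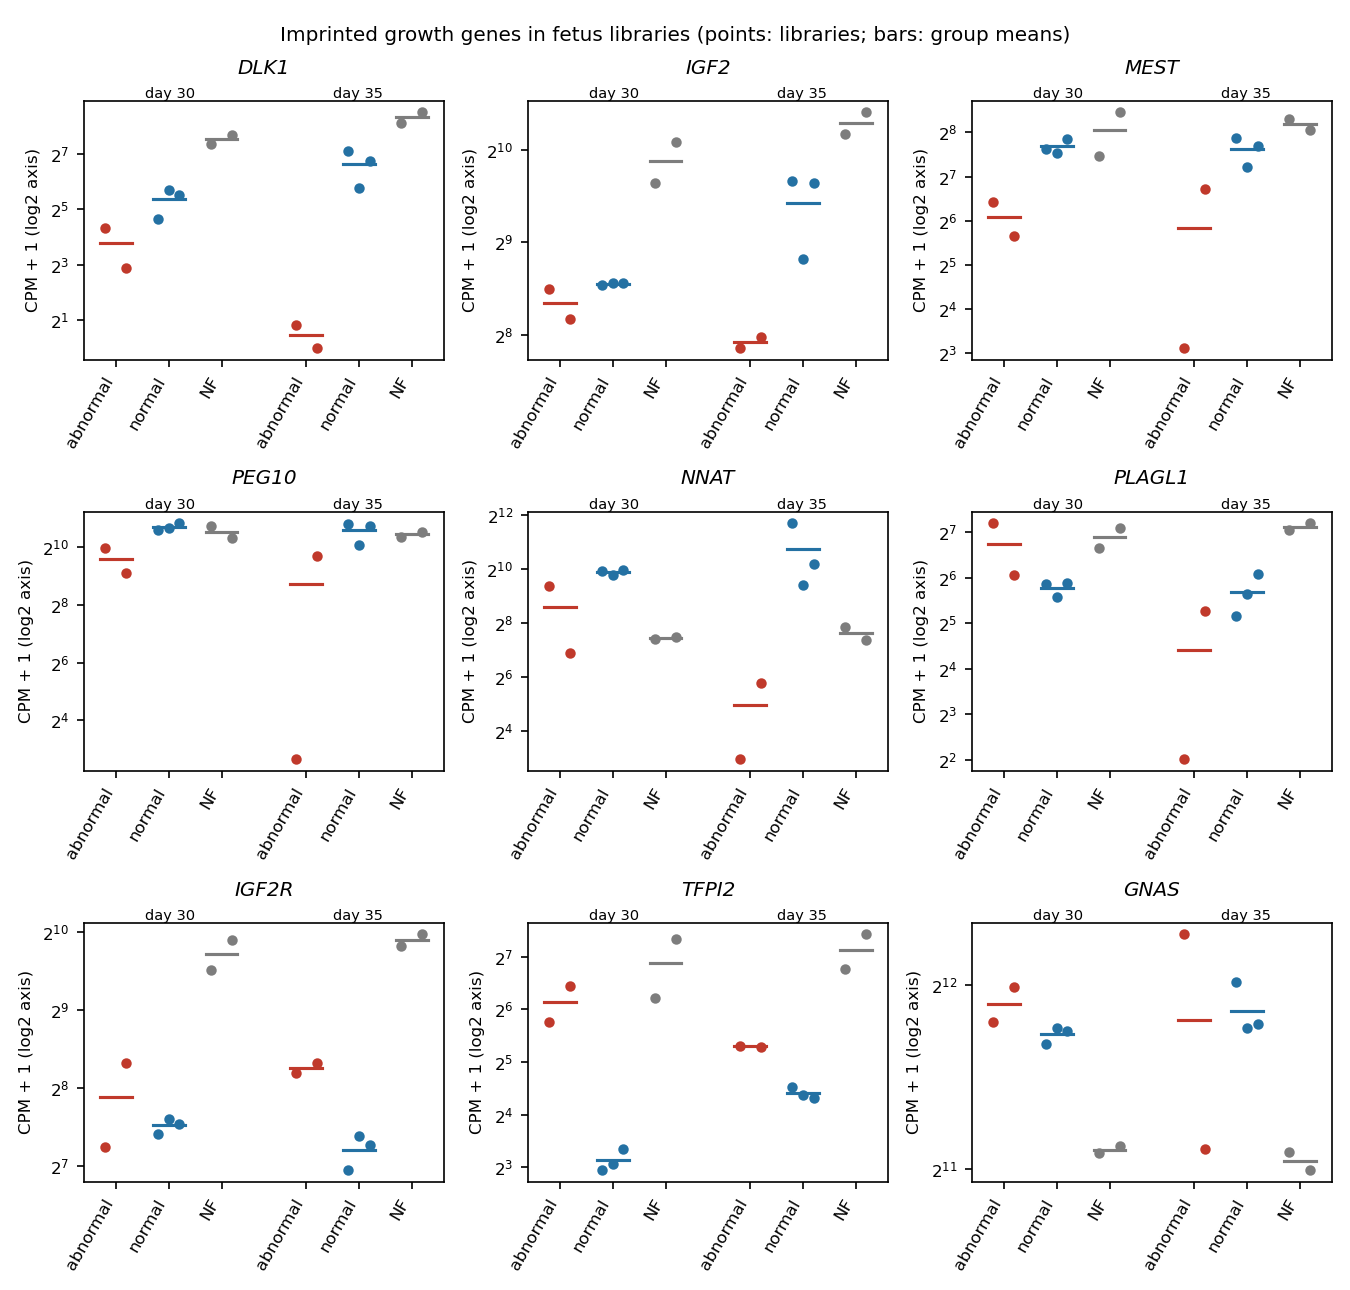
CPM + 1 (log2 axis) of the 9 genes in each of the 14 fetus libraries, by group and day, with points for libraries and bars for group means. DLK1 steps up through abnormal, normal and NF fetuses on both days, IGF2R and TFPI2 are highest in NF fetuses, and NNAT is highest in normal clones.

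DLK1, a transmembrane and secreted Notch-related ligand that holds precursor cells undifferentiated, gave the widest spread. At day 30 it had 19.2 and 6.41 CPM in abnormal, 24.1, 51.5 and 44.7 CPM in normal and 164 and 208 CPM in NF fetuses. The 3 groups did not overlap. Normal clones stood below NF fetuses at -2.21 ± 0.44 on the log2 scale (± SE here and below, adjusted p = 0.00429), and abnormal clones by -3.86 ± 0.57 (adjusted p = 0.0017). The difference of abnormal from normal clones was -1.65 ± 0.52 and missed the threshold (adjusted p = 0.0541). At day 35 DLK1 had 0.767 and 0 CPM in abnormal, 138, 53.5 and 107 CPM in normal and 279 and 363 CPM in NF fetuses. The groups were again apart, in the same order. The abnormal values are 2 counts in replicate 1 and none in replicate 2, where 3 counts correspond to 8.09 CPM. Taken over the group, these 2 counts put DLK1 148-fold below normal fetuses (95% exact Poisson interval 40.9 to 1220) and 478-fold below NF fetuses (132 to 3940), which covers counting error only. Normal clones at day 35 were lower than NF fetuses by -1.69 ± 0.43 (adjusted p = 0.0093), a call that ended without day 35 NF replicate 2 (-1.49, adjusted p = 0.0739). Ranked by mean, the 6 groups ran from day 35 NF through day 30 NF, day 35 normal, day 30 normal and day 30 abnormal to day 35 abnormal, and no neighbours in this order overlapped.

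IGF2, the main growth factor of the fetus, followed nearly the same order. At day 30 it had 361 and 286 CPM in abnormal, 372, 377 and 376 CPM in normal and 799 and 1090 CPM in NF fetuses. Abnormal and normal clones lay close together, at a log2 fold change of -0.21 ± 0.25 (adjusted p = 0.588), and normal clones were lower than NF fetuses by -1.33 ± 0.24 (adjusted p = 0.00273). Its day 35 values were 231 and 251 CPM in abnormal, 809, 452 and 799 CPM in normal and 1160 and 1360 CPM in NF fetuses. The groups did not overlap, with abnormal at -1.51 ± 0.26 relative to normal clones (-1.47 and -1.53 without abnormal replicate 1 and 2) and at -2.39 ± 0.28 relative to NF fetuses. Normal clones were lower than NF fetuses by -0.88 ± 0.24 (adjusted p = 0.0132), though not without day 35 NF replicate 2 (-0.76, adjusted p = 0.103). IGF2 was higher in day 35 than in day 30 normal clones by 0.87 ± 0.22 (adjusted p = 0.0338), a call that held in 5 of the 14 fits that each left out 1 library. It ended without any 1 of the 3 day 30 normal libraries, day 35 normal replicate 1 or 3, either day 30 abnormal or either day 35 NF library (adjusted p up to 0.149).

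IGF2R, the receptor that takes IGF2 up for breakdown in lysosomes, was highest in NF fetuses. At day 30 it had 151 and 319 CPM in abnormal, 169, 194 and 185 CPM in normal and 726 and 954 CPM in NF fetuses. Abnormal and normal clones overlapped (0.36 ± 0.27, adjusted p = 0.382). Both kinds of clone were lower than NF fetuses, abnormal by -1.84 ± 0.30 (adjusted p = 0.0027) and normal by -2.20 ± 0.27 (adjusted p = 0.000362). At day 35 IGF2R had 291 and 318 CPM in abnormal, 123, 166 and 153 CPM in normal and 903 and 1000 CPM in NF fetuses. Abnormal clones were above every normal clone, at 1.04 ± 0.27 (1.09 and 1.02 without abnormal replicate 1 and 2, and 0.92, no longer called, without normal replicate 1; limma on log2(TPM + 1) or log2(TPM + 0.1) did not call it either), and normal clones were lower than NF fetuses by -2.69 ± 0.27 (adjusted p = 8.29e-05).

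**Figure D3:**
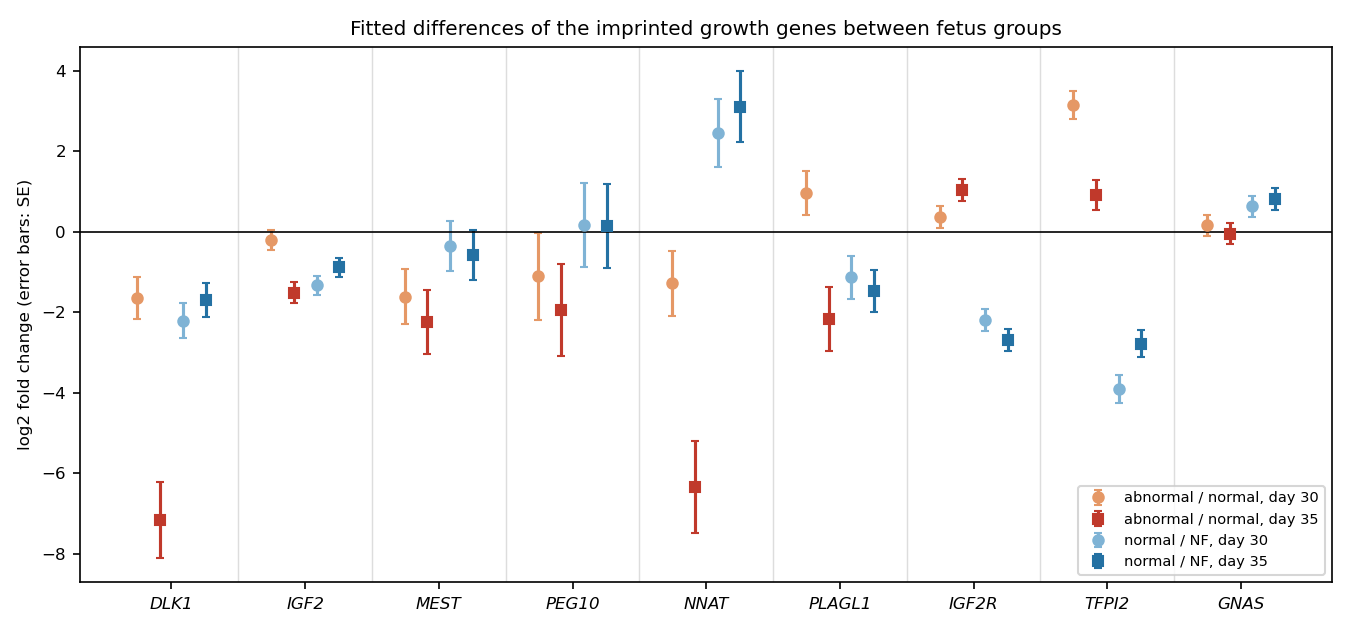
Fitted log2 fold changes of the 9 genes with their SE, for abnormal over normal clones and normal clones over NF fetuses at each day. DLK1 (-7.17) and NNAT (-6.35) lie lowest in abnormal against normal fetuses at day 35, and TFPI2 is at 3.16 in abnormal against normal and -3.90 in normal against NF fetuses at day 30.

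MEST, a hydrolase-like protein of embryonic mesoderm whose loss restricts growth in mice, was lower in every abnormal library than in any normal one. It had 84.3 and 49.2 CPM in abnormal, 197, 185 and 231 CPM in normal and 176 and 350 CPM in NF fetuses at day 30. The gap of abnormal from normal clones was -1.61 ± 0.68 and did not pass with all libraries in the fit (adjusted p = 0.131), though it did without both day 35 abnormal libraries (adjusted p = 0.00453). The day 35 libraries had 7.67 and 105 CPM in abnormal, 234, 147 and 206 CPM in normal and 317 and 264 CPM in NF fetuses. The abnormal pair differed widely, and the fitted difference from normal clones of -2.24 ± 0.80 was -0.91 without replicate 1 and -4.63 without replicate 2. Normal clones and NF fetuses did not differ past the threshold at day 30 (-0.36 ± 0.62, adjusted p = 0.699) or day 35 (-0.57 ± 0.62, adjusted p = 0.484).

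PEG10, a gene derived from a retrotransposon and needed for the placenta in mice, had 994 and 548 CPM in abnormal, 1540, 1620 and 1810 CPM in normal and 1680 and 1260 CPM in NF fetuses at day 30. Abnormal libraries were below all others of that day (-1.10 ± 1.08 against normal, adjusted p = 0.518, and 0.0101 without both day 35 abnormal libraries). At day 35 it had 5.37 and 828 CPM in abnormal, 1800, 1080 and 1710 CPM in normal and 1310 and 1470 CPM in NF fetuses. Replicate 1 was nearly without PEG10 and replicate 2 was below every normal library, so that the log2 difference was -0.90 without replicate 1 and -8.10 without replicate 2. The library with little PEG10 held 5440 CPM of placenta and trophoblast markers, against 213 CPM in replicate 2.

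NNAT, which encodes the small membrane protein neuronatin of the developing nervous system, was highest in normal clones. At day 30 it had 653 and 119 CPM in abnormal, 958, 874 and 987 CPM in normal and 167 and 177 CPM in NF fetuses. Normal clones lay above all others, but neither gap passed the threshold (-1.28 ± 0.81 for abnormal against normal, adjusted p = 0.307, and 2.45 ± 0.85 for normal against NF, adjusted p = 0.0503). Day 35 gave 6.91 and 54.0 CPM in abnormal, 3290, 681 and 1170 CPM in normal and 231 and 165 CPM in NF fetuses. The groups did not overlap, with abnormal at -6.35 ± 1.14 relative to normal clones (-4.99 and -7.90 without abnormal replicate 1 and 2). Normal clones exceeded NF fetuses by 3.11 ± 0.88 (adjusted p = 0.0157). That call ended without normal replicate 1 (2.23, adjusted p = 0.0528), NF replicate 1 (3.37, adjusted p = 0.0736) or NF replicate 2 (2.89, adjusted p = 0.12). Between normal clones and NF fetuses the neural marker list moved with NNAT. All 9 of its tested genes rose in normal clones at day 35, beside 22.1% of all genes, and 8 of 9 at day 30, beside 14%. NNAT and the neural sums were also both lower in abnormal than in normal clones on each day. At day 35 NNAT averaged 30.4 CPM in abnormal and 198 CPM in NF fetuses, beside neural sums of 356 to 407 and 489 to 513 CPM. The day 30 abnormal pair had NNAT at 653 and 119 CPM beside neural sums of 882 and 710 CPM. The part of these markers in the NNAT values was not tested.

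PLAGL1, a zinc finger transcription factor that slows the cell cycle, lay above normal clones in the abnormal pair at day 30 but not at day 35. It had 145 and 65.9 CPM in abnormal, 57.2, 47.0 and 57.6 CPM in normal and 99.1 and 136 CPM in NF fetuses at day 30. The gap between abnormal and normal clones was 0.97 ± 0.54 and missed the threshold (adjusted p = 0.251, and 0.0429 without both day 35 abnormal libraries). At day 35 it had 3.07 and 37.8 CPM in abnormal, 34.5, 48.6 and 67.1 CPM in normal and 131 and 145 CPM in NF fetuses. Abnormal and normal clones overlapped there, and the log2 difference of -2.17 ± 0.80 was -0.42 without abnormal replicate 1 and -3.97 without replicate 2. Normal clones were lower than NF fetuses at day 35 by -1.47 ± 0.53 (adjusted p = 0.0442). This call held in 5 of 14 fits with 1 library left out, and ended without any day 30 or day 35 normal library, day 30 NF replicate 2 or either day 35 NF library (adjusted p up to 0.165).

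TFPI2, an inhibitor of plasmin and other serine proteases that is abundant in placenta, was the member that passed in abnormal against normal clones at day 30. It had 53.3 and 86.4 CPM in abnormal, 6.75, 7.31 and 9.23 CPM in normal and 73.1 and 161 CPM in NF fetuses. Abnormal clones were far above normal ones and overlapped NF fetuses. The log2 fold change against normal clones was 3.16 ± 0.35 (adjusted p = 0.000479), and between 2.77 and 3.47 whichever library was left out. Normal clones were lower than NF fetuses by -3.90 ± 0.35 (adjusted p = 8.51e-05). At day 35 TFPI2 had 38.8 and 37.8 CPM in abnormal, 22.2, 19.7 and 18.9 CPM in normal and 108 and 171 CPM in NF fetuses. The 3 groups were apart, with abnormal above normal clones by 0.92 ± 0.37 and normal clones below NF fetuses by -2.78 ± 0.33 (adjusted p = 0.000177). Normal clones at day 35 were above those at day 30 by 1.38 ± 0.32 (adjusted p = 0.0257), a call that ended without any 1 of these 6 libraries (adjusted p up to 0.116). Placenta markers were also higher in abnormal than in normal libraries at day 30, where 6 of 9 tested genes rose, beside 8.93% of all genes. In the day 35 abnormal pair the placenta markers summed to 5440 and 213 CPM, while TFPI2 was at 38.8 and 37.8 CPM. Sums of these markers over both days were 64.8 to 98 CPM in NF fetuses, and their part in the TFPI2 values was not tested.

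GNAS, which encodes the stimulatory G protein subunit Gs-alpha and overlapping transcripts with different imprinting, was abundant everywhere. At day 30 it had 3560 and 4060 CPM in abnormal, 3280, 3490 and 3440 CPM in normal and 2170 and 2230 CPM in NF fetuses. Clones of both kinds were above NF fetuses, without passing the threshold (normal against NF 0.63 ± 0.26, adjusted p = 0.0946, and 0.000349 without both day 35 abnormal libraries). At day 35 it had 4960 and 2210 CPM in abnormal, 4150, 3480 and 3530 CPM in normal and 2180 and 2040 CPM in NF fetuses. The abnormal pair lay on either side of the normal clones, so the log2 difference from them was -0.77 without replicate 1 and 0.46 without replicate 2. Normal clones exceeded NF fetuses by 0.82 ± 0.27 (adjusted p = 0.0293), which held in 7 of 14 fits with 1 library left out. It ended without day 35 normal replicate 1 or 3, either day 35 NF library, either day 30 abnormal library or day 30 NF replicate 1 (adjusted p up to 0.155).

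The transcript records behind DLK1 and MEST differed between clones and NF fetuses in ways that the gene totals hide. For DLK1 the files hold a record of 978 bases and one of 1012 bases. The 1012-base record was at 0 and 1.63 TPM in abnormal, 0.45, 19.2 and 1.36 TPM in normal and 178 and 1.06 TPM in NF fetuses at day 30. At day 35 it was at 0 in both abnormal libraries, 3.71, 3.50 and 1.15 TPM in normal and 307 and 371 TPM in NF fetuses. It thus made up 75.7% to 84.0% of DLK1 in 3 of the 4 NF libraries and 0.346% in the other, day 30 NF replicate 2, while clones used mainly the 978-base record. At day 30 the 978-base record alone was at 35.0, 52.2 and 63.0 TPM in normal and 33.9 and 305 TPM in NF fetuses. At day 35 it was at 0.72 and 0 TPM in abnormal, 175, 70.8 and 143 TPM in normal and 84.9 and 119 TPM in NF fetuses. For this record normal clones thus overlapped NF fetuses on both days. Their separation in the DLK1 total depends on counting the 1012-base record as well. What distinguishes the records beyond length, and how well reads tell them apart, was not tested.

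MEST showed the opposite tilt. Its 1235-base record stood at 20.5 and 8.49 TPM in abnormal, 56.1, 53.3 and 63.1 TPM in normal and 4.50 and 7.13 TPM in NF fetuses at day 30. At day 35 it was at 0 in both abnormal libraries, 53.4, 35.8 and 55.8 TPM in normal and 1.72 and 0 TPM in NF fetuses. Every normal clone was above every NF fetus for this record. The 2483-base record was at 14.4 and 10.1 TPM in abnormal, 55.5, 49.0 and 61.2 TPM in normal and 13.3 and 135 TPM in NF fetuses at day 30, where the NF pair lay on either side of the normal clones. At day 35 it was at 0 and 24.1 TPM in abnormal, 61.7, 33.8 and 48.8 TPM in normal and 124 and 91.2 TPM in NF fetuses, so that both NF libraries were above the normal clones. Matched by accession with version, which keeps the 1235-base record alone, MEST was higher in normal clones than in NF fetuses, by 3.42 at day 30 (adjusted p = 0.00436) and 6.01 at day 35 (adjusted p = 0.000542). The direction of MEST between normal clones and NF fetuses therefore depends on which records are counted.

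**Figure D4:**
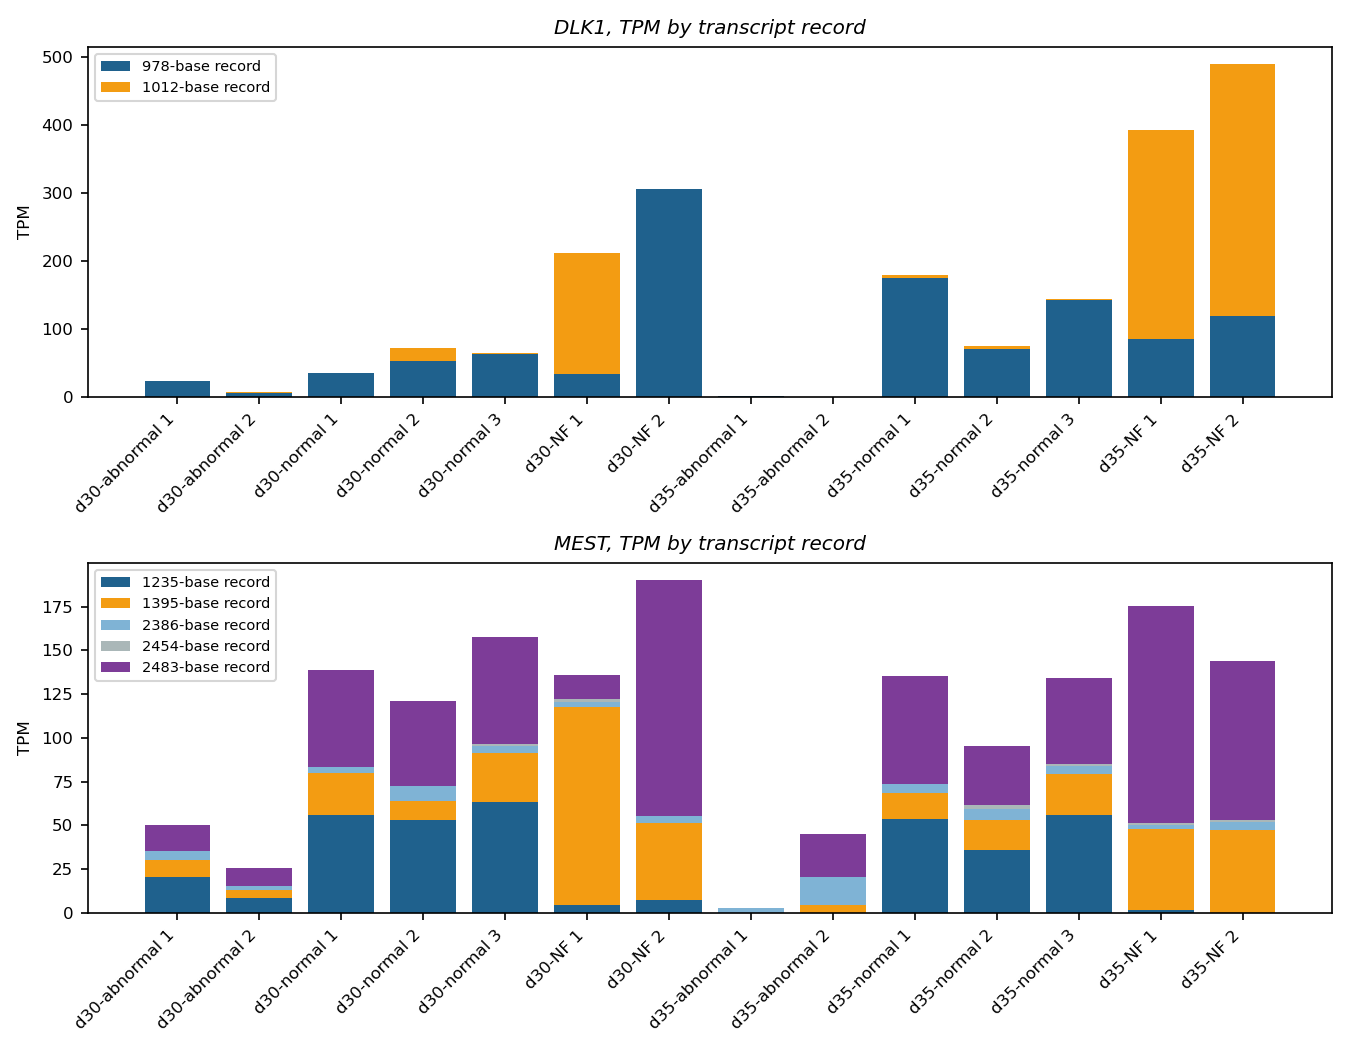
TPM of each matched transcript record of DLK1 (upper) and MEST (lower), stacked per fetus library from day 30 to day 35. The 1012-base DLK1 record fills most of the bar in 3 of 4 NF libraries and little in clones, and the 1235-base MEST record is present in normal clones and nearly missing in NF fetuses.

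Other genes of the same pathways were read from lists chosen with earlier results known, the day 35 contrast among them, so their day 35 counts are a description from which nothing is read. Each count stands beside 15.4% of all genes called at day 30 (8.93% higher and 6.46% lower) or 23.2% at day 35 (10.9% higher and 12.3% lower).

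Of 11 further paternally expressed imprinted genes tested, 0 were higher and 1 was lower in abnormal against normal clones at day 30. That was NAP1L5, a nucleosome assembly protein relative. It had 2.38 ± 0.953 CPM in abnormal and 12 ± 1.85 CPM in normal clones (SD, n = 2 and 3). NF fetuses of day 30 had 1.73 ± 1.8 CPM (SD, n = 2), and normal clones were above them by 2.76 ± 0.67 (adjusted p = 0.011). At day 35 the model called 2 of the 11 higher and 6 lower, with a median of -2.73, and the abnormal pair often differed between its libraries. SNRPN, a splicing factor gene of the Prader-Willi region, had 0 and 43.2 CPM in abnormal and 295, 125 and 169 CPM in normal clones (-4.39 ± 1.16). NDN, the growth suppressor necdin next to it, had 2.69 and 27.0 CPM in abnormal and 113, 60.2 and 121 CPM in normal clones (-3.67 ± 0.76). SGCE, a sarcoglycan gene that adjoins PEG10, had 2.69 and 45.9 CPM in abnormal and 118, 77.4 and 123 CPM in normal clones (-3.0 ± 0.77). In all of these the first abnormal library was lowest, and both were below every normal clone. NAP1L5 had 0.767 and 2.70 CPM in abnormal and 16.0, 6.91 and 15.8 CPM in normal clones (-3.52 ± 0.95). Higher was SLC38A4, an amino acid transporter, at 12.7 and 18.9 CPM in abnormal and 3.75 to 5.25 CPM in normal clones (1.74 ± 0.55). IMPACT, a regulator of translation, was also higher, at 127 and 94.4 CPM in abnormal and 53.6 to 71.3 CPM in normal clones (0.85 ± 0.18). NF means at day 35 were 60.7 CPM for SNRPN, 65.1 CPM for NDN and 68.3 CPM for SGCE, between the means of abnormal and normal clones. For NAP1L5 (1.12 CPM) the NF mean was below that of normal clones, and for SLC38A4 (11.3 CPM) and IMPACT (90.3 CPM) above it.

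Of 8 maternally expressed genes 0 passed at day 30, and at day 35 the model called 1 higher and 2 lower. GRB10, an inhibitor of insulin and IGF receptor signalling, had 130 and 264 CPM in abnormal and 81.9 to 96.8 CPM in normal clones (1.13 ± 0.28). NTM, a neural adhesion protein, had 9.98 and 8.09 CPM in abnormal and 58.0 to 93.3 CPM in normal clones (-2.91 ± 0.45). CALCR, the calcitonin receptor, was at 0 in both abnormal libraries and at 5.21 to 6.85 CPM in normal clones. NF fetuses of day 35 averaged 228 CPM for GRB10, 6.4 CPM for NTM and 0.26 CPM for CALCR. By group mean, normal clones were thus lowest in GRB10 and highest in NTM and CALCR.

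In the list of 13 tested genes of IGF2 signalling and RNA binding, 2 rose and 0 fell in abnormal against normal clones at day 30, a share equal to that of all genes, with a median of 0.26. They were binding proteins of IGFs, IGFBP2 at 3040 ± 260 CPM in abnormal and 771 ± 33.9 CPM in normal clones (1.98 ± 0.55, adjusted p = 0.0332) and IGFBP3 at 112 ± 28.3 CPM in abnormal and 35.1 ± 6.26 CPM in normal clones (1.67 ± 0.25, adjusted p = 0.00253). At day 35 the model called 3, all higher. PAPPA, a protease that frees IGFs from binding proteins, had 69.1 and 367 CPM in abnormal and 24.4 to 32.6 CPM in normal clones (2.84 ± 0.53). IGF2BP1, an RNA-binding protein of IGF2 mRNA, had 98.2 and 138 CPM in abnormal and 27.9 to 50.5 CPM in normal clones (1.57 ± 0.28). IGF1R, the receptor through which IGF2 signals, had 230 and 124 CPM in abnormal and 62.9 to 101 CPM in normal clones (1.14 ± 0.25). NF means at day 35 were 223 CPM for PAPPA, 107 CPM for IGF2BP1 and 123 CPM for IGF1R, each above the mean of normal clones. At day 30 the NF mean was 82.7 CPM for IGFBP3, above normal clones, and 279 CPM for IGFBP2, below them. The library with 367 CPM of PAPPA also held 34100 CPM of fibroblast culture markers, whose part was not tested.

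Of 11 DLK1 and Notch pathway genes, 1 rose at day 30: DLL4, an endothelial Notch ligand, at 60.7 ± 31.5 CPM in abnormal and 13.5 ± 4.81 CPM in normal clones (2.16 ± 0.55, adjusted p = 0.0243). Sums of 7 endothelial markers were then 834 and 1200 CPM in abnormal and 537 to 571 CPM in normal clones, with 1 marker higher and 1 lower. At day 35 the model called 4, all lower, and the endothelial sums were 204 and 67.4 CPM in abnormal and 587 to 675 CPM in normal clones, with 5 of 7 lower. The Notch target HEYL had 1.15 and 0 CPM in abnormal and 49.8 to 60.9 CPM in normal clones (-5.75 ± 0.45), and DLL4 1.15 and 0 CPM in abnormal and 11.8 to 20.1 CPM in normal clones (-4.05 ± 1.03). HEY1, another Notch target, had 3.07 and 16.2 CPM in abnormal and 32.2 to 41.4 CPM in normal clones (-2.68 ± 0.51), and the ligand DLL1 13.4 and 8.09 CPM in abnormal and 33.8 to 38.1 CPM in normal clones (-1.56 ± 0.30). In the second abnormal library 8.09 CPM is 3 counts, and the part of endothelial markers in these values was not tested. Of 10 tested genes of imprint maintenance and DNA methylation, TET2 and KDM1B among them, 1 was lower at day 30 and 0 passed at day 35. The lower gene was CTCF, the insulator protein that binds the IGF2 region (-0.85 ± 0.19, adjusted p = 0.0152). CTCF had 120 ± 7.32 CPM in abnormal and 217 ± 13.8 CPM in normal clones.

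Across the 14 fetus libraries, the gene most like DLK1 among 9911 was IGF2, with a Spearman correlation of CPM of 0.991. OLFM2, an olfactomedin, followed at 0.982 and PTGIR, the prostacyclin receptor, at 0.978. For IGF2 the nearest were DLK1, OLFM2 (0.978) and KY (0.969), a muscle protease gene, and for MEST they were WDR83 (0.960), CAMLG (0.912) and CD247 (0.912). OLFM2 averaged 53.3 CPM in abnormal, 209 CPM in normal and 347 CPM in NF fetuses at day 35, the same order as DLK1. These values describe libraries that fall into groups and carry no test.

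In day 6 embryos most of the set was near or at 0. DLK1, PEG10 and PLAGL1 had 0 counts in all 8 libraries, where 3 counts over a group correspond to 0.103 to 0.251 CPM. IGF2, NNAT, IGF2R and TFPI2 were at 8.19 CPM or less in every library. MEST had 22.7 and 5.56 CPM in XIST-KO, 106 and 65.0 CPM in WT+Kdm4A, 0 and 4.88 CPM in WT and 0.153 and 38.4 CPM in IVF embryos. The WT+Kdm4A libraries were the highest, but the difference from WT did not pass (5.13 ± 2.06, adjusted p = 0.136).

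GNAS was the member that passed a test in embryos. It had 266 and 428 CPM in XIST-KO, 288 and 153 CPM in WT+Kdm4A, 23.0 and 19.2 CPM in WT and 231 and 290 CPM in IVF embryos. WT embryos lay below all others. Marker lists also set the WT libraries apart. The list of inner cell mass and blastocyst genes holds 11 genes, with CDX2, which is also in the placenta and trophoblast list. It summed to 444 to 691 CPM in XIST-KO, 168 to 280 CPM in WT+Kdm4A, 1280 to 3010 CPM in WT and 278 to 285 CPM in IVF embryos. NANOG and SOX2 were at 0 in XIST-KO, WT+Kdm4A and WT, and SOX17 in XIST-KO and WT. DPPA5 and SALL4 were at 0 in XIST-KO, and LIN28A in WT+Kdm4A and IVF embryos. Hypoxia genes (9 genes) summed to 160 to 230 CPM in XIST-KO, 211 to 233 CPM in WT+Kdm4A, 951 to 1500 CPM in WT and 324 to 393 CPM in IVF embryos, and the part of either in the GNAS values was not tested. Of the 4 genes tested in embryos (IGF2, MEST, IGF2R and GNAS), GNAS passed in each comparison and the others in none. It was higher in XIST-KO than in WT by 4.04 ± 0.65 (adjusted p = 0.0277, background 1.11%) and in WT+Kdm4A than in WT by 3.39 ± 0.63 (adjusted p = 0.0129, background 7.43%). In WT it was lower than in IVF embryos by -3.63 ± 0.64 (adjusted p = 0.0139, background 5.71%). Over all genes the median log2 fold change was 0.15 for XIST-KO against WT, 0.35 for WT+Kdm4A against WT and -0.23 for WT against IVF. The 3 comparisons share the WT libraries, and each call ended without WT replicate 1 or 2 (adjusted p 0.0736 to 0.189). The XIST-KO call also ended without XIST-KO replicate 2 or IVF replicate 2, and the IVF call without either IVF library.

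Most GNAS signal in embryos came from its 3 non-coding records, which held 55.8% to 89.9% of its TPM, against 22.7% to 37.7% in fetuses. The share of 55.8% is from WT replicate 2, with 4.26 TPM in non-coding and 3.37 TPM in coding records. How well reads tell the GNAS records apart was not tested. The 5 protein-coding records summed to 14.9 and 31.6 TPM in XIST-KO, 16.7 and 8.07 TPM in WT+Kdm4A, 1.78 and 3.37 TPM in WT and 25.5 and 33.2 TPM in IVF embryos, which puts WT lowest. The non-coding records summed to 90.4 and 279 TPM in XIST-KO, 127 and 52.0 TPM in WT+Kdm4A, 9.74 and 4.26 TPM in WT and 118 and 213 TPM in IVF embryos. Both classes were lowest in WT. Coding records of GNAS in day 30 normal fetuses summed to 1560 to 1680 TPM, but embryo libraries were made from cDNA with another kit and are not compared with fetuses by a test.

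**Figure D5:**
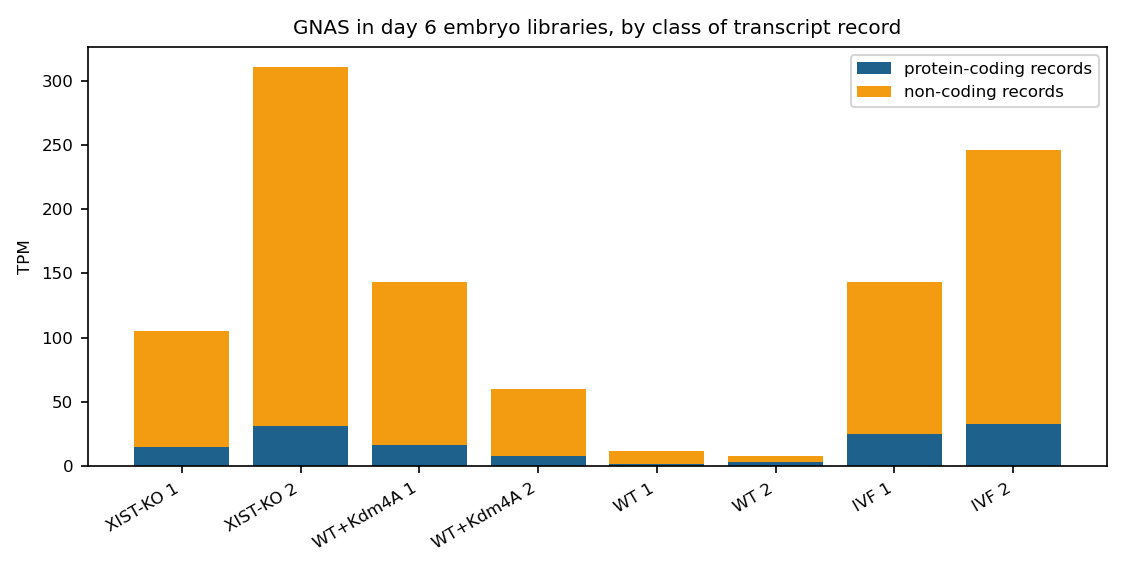
TPM of GNAS in the 8 embryo libraries, stacked by protein-coding and non-coding transcript records. WT libraries hold the least of both classes, and non-coding records make up most of each bar.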

How the data were processed

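The authors deposited 1 table per library with 65927 RefSeq transcript records. Per the file headers it gives an expected count, the estimated count of reads per record, and TPM, the length-scaled abundance, both as deposited. RSEM 1.2.4 and the build Sscrofa11.1 are named per the submitters' processing notes, while the sources used here name no aligner and no read filter. Per the labels' protocols, total RNA went into the fetal libraries and cDNA into those of embryos.

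Records were matched to symbols by accession without version (25305 records, 38.4%; 4758 with version) against RefSeq, and counts and TPM were summed per symbol. Matched records held 66.0% to 69.0% of counts in fetuses and 79.5% to 85.0% in embryos. Total counts were 6448823 to 20352041 per embryo library. After rounding of the sums, a filterByExpr filter and TMM scaling, groups were compared by the quasi-likelihood F-test of edgeR 4.0.16 (R 4.3.3), 1 fit per stage with a mean per group, with Benjamini-Hochberg adjustment at 0.05 over 9911 genes in fetuses and 6958 in embryos. The fits were tested on simulated data with known fold changes. That simulation gave every gene and library the same spread, so it does not cover a pair as unlike as the day 35 abnormal libraries. Alternatives used DESeq2 1.42.0 and limma 3.58.1 on log2(TPM + 1) and log2(TPM + 0.1).

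Members and lists were chosen with earlier results of these data known. All members are named. Of other genes, up to 4 per direction and list were named by size among those past the threshold in abnormal against normal fetuses, and the 3 most correlated genes for DLK1, IGF2 and MEST. No record was matched to XIST, KDM4A or PEG3, which are not analysed here. Tables and figures used Python 3.11.15, pandas 2.3.3 and matplotlib 3.10.9.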

Additional observations from a re-analysis of the deposited data

Results flagged for a closer look

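For DLK1 the log2 difference of abnormal from normal clones at day 35 minus that at day 30 was -5.51, past the threshold of the interaction test over all genes. It rests on 2 counts in the day 35 abnormal libraries, and the call ended without day 30 abnormal replicate 1 (-4.49), day 35 abnormal replicate 1 (-10.19), any day 30 normal library, or day 35 normal replicate 1 or 3.

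For TFPI2 the same difference was -2.24, with abnormal above normal clones by 3.16 at day 30 and by 0.92 at day 35. The call ended without day 30 abnormal replicate 2 (-1.83) or without any normal library. Both differences contain the day 35 contrast that was known when the set was chosen and are given as a description.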

How the results depend on the processing

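The counts of genes past the threshold moved most with the libraries that share the fit. In abnormal against normal fetuses at day 30 the count of 1 was 2 without a filter, with DESeq2 and with limma on log2(TPM + 1) with or without a filter, 5 with only the compared groups and 5 without both day 35 abnormal libraries (1 to 5 with a library left out, 5 without either of these). At day 35 the count of 4 was 1 with only the compared groups (3 to 8 with a library left out). For normal against NF fetuses the day 30 count of 4 was 7 with only the compared groups and 7 without both day 35 abnormal libraries (4 to 7), and the day 35 count of 7 was 4 with limma on log2(TPM + 0.1) and 4 with limma without a filter (2 to 7). For abnormal against NF fetuses the day 30 count of 3 was 5 with DESeq2, 5 with only the compared groups and 6 without both day 35 abnormal libraries (3 to 6), and the day 35 count of 6 was 0 with only the compared groups (3 to 9). In day 35 against day 30 normal clones the count of 2 was 1 with limma at either pseudocount, 0 with limma without a filter, 1 with the replicate block and 1 with version matching (0 to 3). For the difference between days the count of 2 was 4 with DESeq2, 0 with the replicate block and 1 with only the compared groups (0 to 6). In embryos the count of 1 was 0 to 1 with a library left out for WT against IVF, was 0 with limma without a filter and 0 with only the compared groups for XIST-KO (0 to 1), and for WT+Kdm4A was 2 without a filter, 2 with DESeq2, 0 with limma without a filter, 2 with the replicate block and 2 with only the compared groups (0 to 2). Direction changed in 41 member values, 3 of them with a call: GNAS in abnormal against normal fetuses at day 35 without abnormal replicate 2 (0.46), and MEST in normal against NF fetuses with version matching (3.42 and 6.01). The other 38 had no call in either fit. With version matching they were MEST in abnormal against NF fetuses at day 30 (1.65) and in day 35 against day 30 NF fetuses (-2.79). Limma gave IGF2R (-0.03, or -0.04 at the smaller pseudocount) and GNAS (-0.10) in abnormal against normal fetuses at day 30, and MEST (-0.02) between days in NF fetuses. Sex as covariate marks only day 30 NF replicate 2, so it acts much as leaving that library out and is no separate check on sex. This fit gave MEST (0.22) and PEG10 (-0.02) in normal against NF fetuses and PLAGL1 (0.09) in abnormal against NF fetuses at day 30. With a library left out, the log2 fold changes whose range crossed 0 were these. For abnormal against normal fetuses IGF2R ran from -0.28 to 0.81 at day 30 and GNAS from -0.77 to 0.46 at day 35. For normal against NF fetuses at day 30 MEST ran from -0.77 to 0.22 and PEG10 from -0.02 to 0.40, and for abnormal against NF fetuses at day 30 NNAT from -0.52 to 1.93 and PLAGL1 from -0.83 to 0.30. Between days in normal clones MEST ran from -0.21 to 0.11, PEG10 from -0.24 to 0.08, NNAT from -0.02 to 1.25 and PLAGL1 from -0.38 to 0.10. Between days in NF fetuses MEST ran from -0.27 to 0.72, PEG10 from -0.28 to 0.13, NNAT from -0.06 to 0.43, IGF2R from -0.01 to 0.39 and TFPI2 from -0.21 to 0.93. For the day 35 effect minus the day 30 effect MEST ran from -3.01 to 0.71, PEG10 from -7.00 to 0.20 and GNAS from -0.93 to 0.30. In embryos IGF2 ran from -7.01 to 0.53 and MEST from -10.76 to 3.86 for WT against IVF, and IGF2 from -6.42 to 2.19 for XIST-KO against WT. Over all genes the calls, with their range over alternatives that left out no single library, were 1525 (375 to 3807) for abnormal against normal fetuses, day 30, 2300 (339 to 2841) for abnormal against normal fetuses, day 35, 2906 (731 to 4466) for normal against NF fetuses, day 30, 4190 (1132 to 5613) for normal against NF fetuses, day 35, 2974 (736 to 4574) for abnormal against NF fetuses, day 30, 2301 (0 to 2909) for abnormal against NF fetuses, day 35, 911 (179 to 3635) for day 35 against day 30, normal fetuses, 0 (0 to 22) for day 35 against day 30, NF fetuses, 401 (115 to 937) for day 35 effect minus day 30 effect, abnormal against normal, 397 (90 to 1464) for WT against IVF embryos, 77 (21 to 932) for XIST-KO against WT embryos, and 517 (132 to 1554) for WT+Kdm4A against WT embryos. The lowest came from version matching, which tests fewer genes, except for day 35 abnormal against normal and NF fetuses (only the compared groups) and the NF fetuses between days (several), and the highest in embryos from DESeq2. Limma at either pseudocount or without a filter, and only the compared groups, did not call IGF2R in abnormal against normal fetuses at day 35. Of the calls of normal against NF fetuses, limma on log2(TPM + 0.1) ended those of DLK1 on both days and of NNAT, limma without a filter those of NNAT and GNAS, the replicate block that of GNAS, and either of these fits, other size factors, DESeq2 or sex as covariate that of PLAGL1. Of 2265 member values under alternatives, 2001 kept direction and side of the threshold, 112 lost and 107 gained a call, 41 changed direction and 4 were 0.00. Deviations from the group mean correlated between libraries of the same number at -0.08 to 0.17 in fetuses and -0.31 to 0.12 in embryos. In groups of 2 these deviations mirror each other, so the values do not decide whether the numbers pair libraries. Depth limits DLK1 in day 35 abnormal replicate 2, where 3 counts are 8.09 CPM. Where a cause is not given it was not tested.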
